A study of Trichoderma reesei QM6a with 6 samples.

Results

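The genes described here encode the cellulases cel7a, cel6a, cel7b, cel5a, cel12a, cel45a, cel74a and cel5b, the cellulose-active cel61a, and swo1, the gene of swollenin. These 10 of the 9113 genes in the deposited table were chosen by identifier, from their known role in cellulose breakdown. Earlier results of these data were known when they were chosen. Trichoderma reesei is a filamentous fungus used as a source of secreted cellulases. The wild type strain QM6a was set against its ace1 deletion (genotype delta_ace1, written Δace1), with 3 libraries of poly(A) RNA each. All cultures had 24 h on 1% D-glucose at 28 °C and 250 rpm in shake flasks, and the washed mycelium was then moved for 3 h to the sugar alcohol D-mannitol at 1%. D-mannitol is not an inducer of cellulases, so the comparison asks which of their transcripts differ without Ace1 when no inducer is present. The labels do not say how many deletion transformants were used, or that replicates were separate cultures, so the spread behind the p-values is that between these samples and may be technical.

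As background, cellulose is cleaved by enzymes that work in concert. Endoglucanases cut within the glucan chain, cellobiohydrolases release cellobiose from chain ends, and beta-glucosidases split cellobiose to glucose. Lytic polysaccharide monooxygenases of the Cel61 type open crystalline cellulose by oxidation, and swollenin is an expansin-like protein that loosens it. In T. reesei the genes of these enzymes are known to be activated by Xyr1 in the presence of inducers such as cellulose, lactose or sophorose, and to be repressed on glucose through Cre1. Ace1, a zinc finger protein, is known to repress them further.

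The libraries held 5482552 to 6938203 estimated counts. A count of 0 in all 3 libraries of a strain allows up to 3 counts, which is 0.169 CPM of the Δace1 totals and 0.156 CPM of the QM6a totals. CPM is a count divided by a library size and multiplied by the same round number for all libraries. For this floor the size is the plain total of counts. For the CPM of genes given below, it is the total after the TMM scaling of edgeR, so those levels and the floor are not on the same scale. The ace1 transcript itself (TRIREDRAFT_75418) was counted 6, 7 and 14 times in Δace1 and 8432, 7765 and 8001 times in QM6a, as the labels of the libraries give it. The gene pks4 (TRIREDRAFT_82208), taken as the marker of conidia, gave 7, 8 and 12 counts in Δace1, against 4, 8 and 5 for QM6a. Its part in the results was not tested.

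Of the 10 genes, swo1 and cel6a were higher in Δace1, cel74a and cel5b were lower with TMM scaling (the trimmed mean scaling of edgeR) but not with every scaling, and 6 had too few counts to be tested. The background is wide, since 80.8% of the 7769 tested genes were called, 41.2% higher and 39.5% lower. That split moved with the scaling, with 51.0% of all calls higher under TMM, 71.8% under library totals and 80.5% on log2(TPM + 1). A call needed a Benjamini-Hochberg adjusted p below 0.05 in edgeR's quasi-likelihood test over all tested genes. A called rise of at least 2-fold, which swo1 and cel6a both showed, was found for 23.2% of the tested genes. Both genes entered the test only with the help of their Δace1 counts, so a count of rises among the tested members supports nothing by itself.

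**Figure D1:**
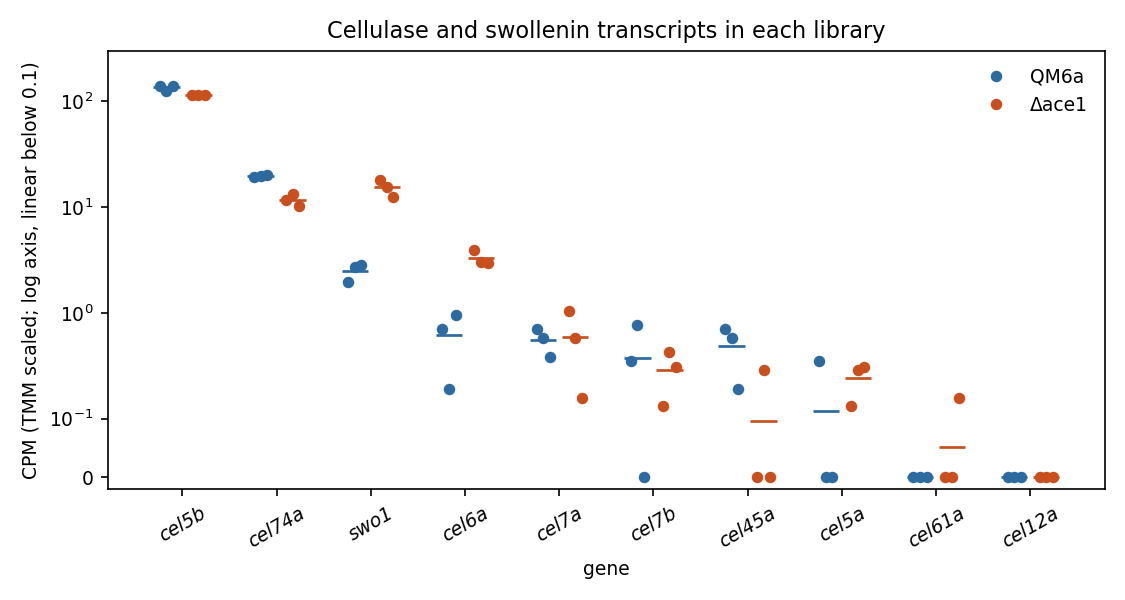
TMM-scaled CPM of each gene in each library, on a log axis that is linear below 0.1, with QM6a in blue, Δace1 in orange and a bar at the mean of 3 libraries. The genes cel5b and cel74a stand highest in QM6a, swo1 and cel6a are separated upward in Δace1, and the other 6 lie at or near 0 in both strains.

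The swollenin gene had the largest rise among the members. TRIREDRAFT_123992 (swo1) was counted 138, 108 and 80 times in Δace1 and 11, 14 and 15 times in QM6a. The lowest Δace1 library was thus far above the highest QM6a library. In scaled values this was 15.3 ± 2.78 against 2.49 ± 0.487 CPM (SD, n = 3 each). The change was 6.16-fold, or 2.62 ± 0.22 on the log2 scale (SE; edgeR, adjusted p = 1.08e-08). The mycelium was measured in bulk, so more cells with the transcript and more transcript per cell cannot be told apart, here and for the genes that follow. The rise of swo1 was called in each of 18 alternatives, with log2 changes between 2.47 and 3.28. The count filter asked for 3 libraries at its minimum level, which swo1 reached in all 3 Δace1 libraries and in 2 of the QM6a libraries. The QM6a counts alone would thus not have brought it into the test.

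Of the cellobiohydrolase genes, cel6a rose and cel7a did not have enough counts for a test. TRIREDRAFT_72567 (cel6a), which encodes the enzyme acting from the non-reducing chain end, was counted 30, 21 and 19 times in Δace1 and 4, 1 and 5 times in QM6a. The strains did not overlap, at 3.29 ± 0.537 against 0.616 ± 0.386 CPM (SD, n = 3 each). The change was 5.21-fold, or 2.38 ± 0.41 on the log2 scale (SE; edgeR, adjusted p = 5.13e-05). It was called in each of the 17 alternatives that kept the gene, with log2 changes from 1.49 on log2(TPM + 1) to 2.93 on log2(TPM + 0.1), where TPM is a count per coding length, relative to the library's sum. The gene passed the count filter only through its Δace1 libraries, and a requirement of 50 counts in 3 samples removed it. The ratio of the 70 counts summed over Δace1 to the 10 summed over QM6a, scaled by TMM, was 5.36 with a 95% counting interval of 2.75 to 11.7.

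TRIREDRAFT_123989 (cel7a) encodes the cellobiohydrolase acting from the reducing end, the main secreted cellulase of induced cultures. It was counted 8, 4 and 1 times in Δace1 and 4, 3 and 2 times in QM6a. The strains overlapped, with the highest and the lowest count both in Δace1. The scaled ratio of the sums, 13 to 9, was 1.11 with a 95% counting interval of 0.437 to 2.93. Ratios inside this interval could not be told apart by the counts. It is no limit of detection, since it leaves out the spread between replicates. The change fitted for cel6a lies outside it, but the counting interval of cel6a, 2.75 to 11.7, overlaps with it. Both intervals cover counting error only, so they do not settle whether these genes differ in their change. In the fit with no low count filter its log2 change was 0.13 (edgeR, adjusted p = 0.875).

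The counts of these cellobiohydrolase genes were also set against each other within each library. Those of cel7a were 26.7%, 19.0% and 5.26% of those of cel6a in Δace1, against 100%, 300% and 40.0% in QM6a. No Δace1 library reached the lowest QM6a library, although the QM6a values rest on 1 to 5 counts per gene. An exact two-sided permutation test gave p = 0.1, the smallest that 3 libraries against 3 allow. This was 1 of 4 ratios tested, and the adjusted value was also 0.1, so it could not pass the test. The ratio was chosen after the values had been seen. It does not tell which of its genes changed, and a rise of cel6a alone would lower it.

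**Figure D2:**
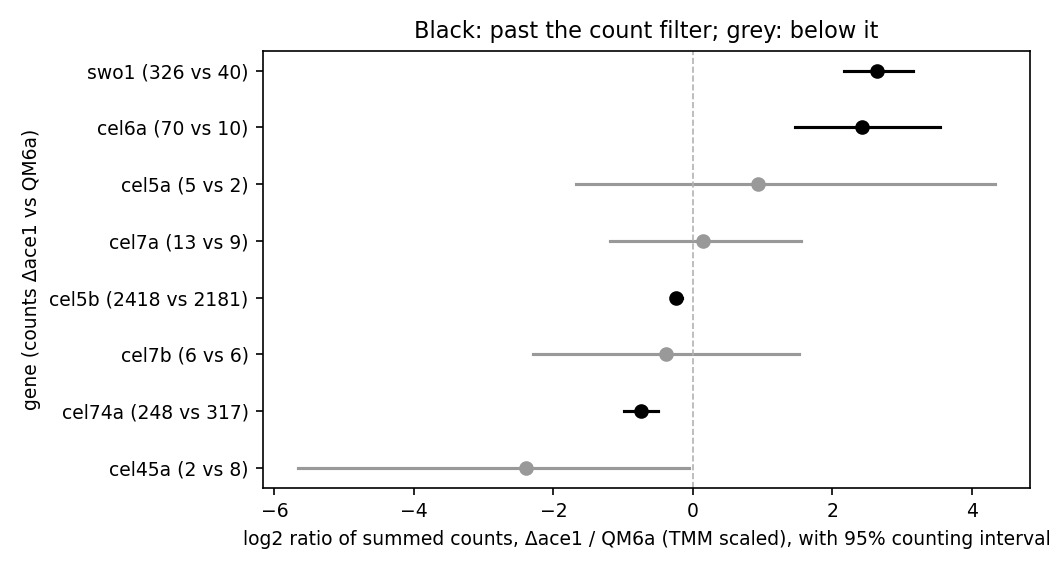
Log2 ratio of the summed TMM-scaled counts of Δace1 to QM6a for the 8 genes with counts in both strains, each with its 95% counting interval and the summed counts in brackets. The intervals of swo1 and cel6a lie above 0, those of cel74a and cel5b below 0 with TMM but not with every scaling, and the grey genes, which were below the count filter, have wide intervals.

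The endoglucanase gene cel5b was by far the most abundant of the 10. TRIREDRAFT_82616 (cel5b) encodes an endoglucanase of family GH5 that is described as anchored at the cell surface. It was counted 872, 805 and 741 times in Δace1 and 793, 654 and 734 times in QM6a. It alone held 76.5% to 81.3% of the counts of all 10 genes in Δace1 and 83.7% to 85.3% in QM6a. Its level per length was 97.6 ± 2.59 TPM in Δace1 and 67.2 ± 3.25 TPM in QM6a (SD, n = 3 each). With that level it stood at rank 1718 of 9113 genes in Δace1 and 1615 in QM6a.

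The direction of cel5b depended on the scaling. With TMM it was 115 ± 0.951 CPM in Δace1 and 135 ± 7.94 in QM6a, which on the log2 scale is -0.24 ± 0.07 (SE; edgeR, adjusted p = 0.00411). With upper-quartile scaling the log2 change was -0.077 and not called (adjusted p = 0.294). With library totals it was called higher, at 0.27 (edgeR, adjusted p = 0.00143), and on log2(TPM + 1) also, at 0.53 (limma, adjusted p = 4.70e-05). The median of all tested genes moved by 0.16 with upper-quartile scaling, 0.50 with library totals and 0.75 on log2(TPM + 1), relative to TMM. The shift of cel5b between scalings was of the size of the shift of all genes.

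The xyloglucanase gene cel74a was lower in Δace1 with TMM, and this call too was lost with library totals and on TPM values. TRIREDRAFT_49081 (cel74a) encodes an enzyme of family GH74 that cleaves xyloglucan, the hemicellulose bound to cellulose fibres. Its counts were 90, 92 and 66 for Δace1 against 110, 102 and 105 for QM6a. At 11.7 ± 1.47 against 19.6 ± 0.278 CPM the strains did not overlap (SD, n = 3 each). The log2 change was -0.74 ± 0.14 (SE; edgeR, adjusted p = 9.13e-05), a level 1.67-fold lower. With library totals it was -0.24 (adjusted p = 0.121), and on log2(TPM + 1) it was 0.018 (limma, adjusted p = 0.906). The levels in TPM were 5.10 ± 0.755 in Δace1 and 5.001 ± 0.206 in QM6a.

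**Figure D3:**
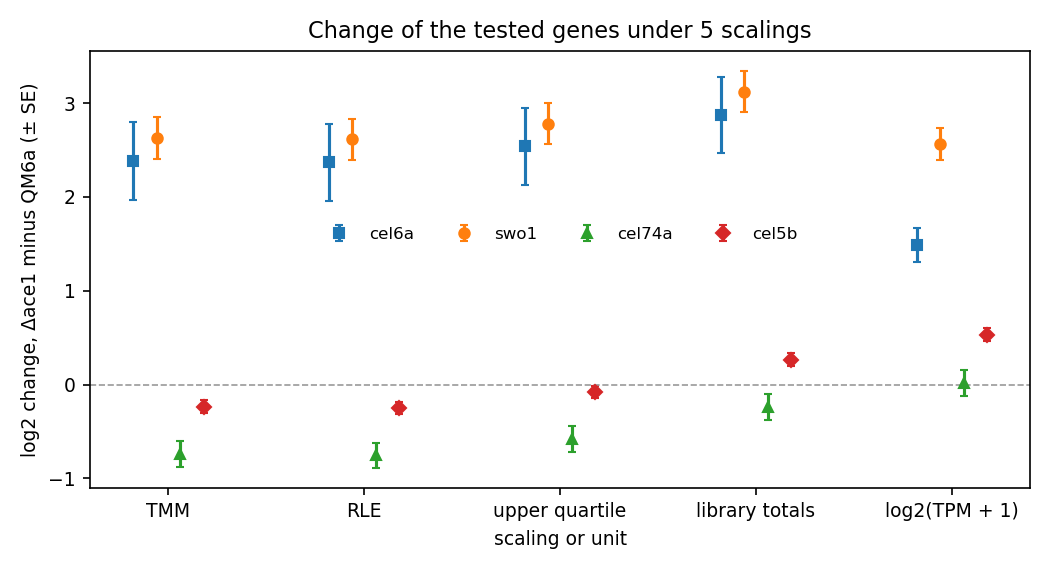
Log2 change (Δace1 minus QM6a) with its standard error for the 4 tested genes under 4 scalings of the counts in edgeR and on log2(TPM + 1) in limma. The changes of swo1 and cel6a stay above 0 throughout, whereas cel5b and cel74a fall below 0 with TMM, RLE and upper-quartile scaling, cel5b is above 0 with library totals and log2(TPM + 1), and cel74a is near 0 on log2(TPM + 1).

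Ratios of counts between genes of a library do not depend on its scaling. Those given here were chosen after the values had been seen. Counts of swo1 were 15.8%, 13.4% and 10.8% of those of cel5b in Δace1, against 1.39%, 2.14% and 2.04% in QM6a. Counts of cel6a were 3.44%, 2.61% and 2.56% of those of cel5b in Δace1, and 0.504%, 0.153% and 0.681% in QM6a. Both genes were thus higher relative to cel5b in every Δace1 library than in any QM6a library. The opposite held for cel74a, whose counts were 10.3%, 11.4% and 8.91% of those of cel5b in Δace1 and 13.9%, 15.6% and 14.3% in QM6a. For each of these ratios the exact two-sided permutation test gave p = 0.1, the smallest possible, and the value adjusted over the 4 ratios was 0.1. No ratio could pass the test in this design, and a ratio does not tell which of its genes changed.

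**Figure D4:**
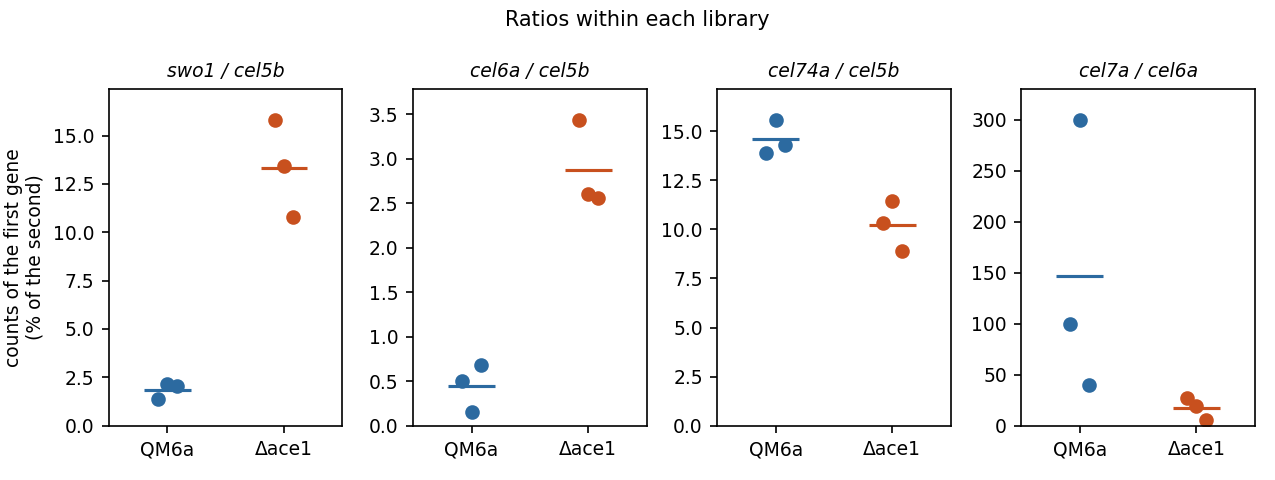
Counts of swo1, cel6a and cel74a as a percentage of cel5b counts, and of cel7a as a percentage of cel6a counts, in each library, with a bar at the mean. The Δace1 libraries (orange) lie above the QM6a libraries (blue) for swo1 and cel6a and below them for cel74a and for cel7a relative to cel6a, with no overlap in any panel.

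The other endoglucanase genes and cel61a stayed near the detection floor in both strains. TRIREDRAFT_122081 (cel7b), the main endoglucanase of induced cultures, was counted 1, 3 and 2 times in Δace1 and 2, 4 and 0 times in QM6a. TRIREDRAFT_120312 (cel5a), an endoglucanase of family GH5, had 1, 2 and 2 against 2, 0 and 0. Neither separated the strains, and the scaled ratios of the sums were 0.765 (95% counting interval 0.205 to 2.86) for cel7b and 1.91 (0.313 to 20.1) for cel5a.

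TRIREDRAFT_49976 (cel45a), a small endoglucanase of family GH45, was counted 0, 2 and 0 times in Δace1 and 4, 3 and 1 times in QM6a. It was the only member below the filter whose counting interval did not include 1, with a scaled ratio of 0.191 (95% counting interval 0.0198 to 0.959). The interval covers counting error only, and the libraries overlapped. With no low count filter the log2 change of cel45a was -2.17 and did not pass the test (edgeR, adjusted p = 0.0699). TRIREDRAFT_73643 (cel61a), the lytic polysaccharide monooxygenase, had a single count, in Δace1 replicate 3. TRIREDRAFT_123232 (cel12a), an endoglucanase of family GH12, had 0 counts in all 6 libraries. No fold is given for cel61a and cel12a, since both strains were at or under the floor of 3 counts over the group.

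Together the 6 genes below the filter had 27 counts in Δace1 and 25 in QM6a, and none exceeded 8 counts in a library. Once the count filter was dropped, edgeR could fit 5 of them and called 0, none with an unadjusted p below 0.05 (lowest 0.0524, cel45a). Of the 8861 genes in that fit 73.1% were called in either direction. Most of those genes, 7769, had passed the count filter, so that share is no measure for genes with so few counts. The lack of calls does not show that the 5 genes were unchanged.

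Per length, the order of the genes differed between the strains. In Δace1 cel5b (94.6 to 99.5 TPM) was followed by swo1 (9.03 to 13.8), cel74a (4.31 to 5.81) and cel6a (2.25 to 3.15 TPM), with no overlap between neighbours in this order. Below them cel7a (0.108 to 0.766 TPM), cel7b and cel45a overlapped. In QM6a cel5b (63.9 to 70.4 TPM) was followed by cel74a (4.77 to 5.15) and then swo1 (0.824 to 1.27 TPM). There cel6a, at 0.0906 to 0.445 TPM, overlapped with cel45a, cel7a and cel7b. The change of rank therefore concerned swo1, which stood below cel74a in QM6a and above it in Δace1, and cel6a, which left the group near the floor. Even so swo1 reached only 11.5 ± 2.39 TPM in Δace1, with 30.1% of all genes below it, and cel6a 2.60 ± 0.479 TPM, with 16.9% below it (SD, n = 3 each). The median gene stood at 29.3 TPM in Δace1 and 15.8 TPM in QM6a.

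The other 14 listed genes of cellulose breakdown show how the members stood within their system. The accessory genes were at or near 0 counts. TRIREDRAFT_120961 (cel61b) and TRIREDRAFT_123940 (cip2) had 0 counts in every library, and TRIREDRAFT_73638 (cip1) had a single count, in Δace1 replicate 1. Of 7 beta-glucosidase genes 6 were tested and all 6 were called higher, against 41.2% of all tested genes. Of these, cel1a (11, 6 and 12 counts in QM6a) and cel3d (22, 19 and 10) passed the count filter only with the help of Δace1. The count of rises therefore supports nothing by itself. The untested cel3a (TRIREDRAFT_76672), a secreted beta-glucosidase, was counted 16, 6 and 6 times in Δace1 and 1, 0 and 0 times in QM6a. Its scaled ratio was 21.4 with a 95% counting interval of 3.54 to 876, and its lowest Δace1 library was above the highest of QM6a. The QM6a sum of 1 count is under the floor of 3 counts over the group, so the size of the ratio is not resolved. In the fit with no low count filter the log2 change of cel3a was 4.025 (edgeR, adjusted p = 0.000437).

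The size of the beta-glucosidase changes spanned that of swo1. The smallest were those of cel1b and cel3d, 1.35 and 1.36 on the log2 scale. TRIREDRAFT_82227 (cel3c) rose by 1.90 and TRIREDRAFT_76227 (cel3e) by 2.70 (edgeR, adjusted p = 1.66e-09 and 8.3e-14). The intracellular cel1a rose by 2.78 and cel3b by 5.92 (edgeR, adjusted p = 8.26e-09 and 3.10e-16). The gene cel3b reached 747 ± 84.0 TPM in Δace1 (SD, n = 3), above cel5b, whereas in QM6a it stood at 7.18 ± 0.984 TPM, below cel5b.

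Among the regulators and the transporter, xyr1, ace3 and crt1 rose and cre1 fell. The xyr1 transcript, which encodes the activator of these genes, was counted 2101, 1844 and 1735 times in Δace1 and 527, 470 and 504 times in QM6a, and rose by 1.53 on the log2 scale (edgeR, adjusted p = 7.58e-13). TRIREDRAFT_3405 (crt1), a sugar transporter known to be needed for cellulase induction, had 741, 596 and 501 counts against 4, 9 and 5, and rose by 6.26 (edgeR, adjusted p = 1.19e-14). The crt1 gene passed the count filter only through its Δace1 libraries. TRIREDRAFT_77513 (ace3), a further activator, rose by 0.61 and cre1, the carbon catabolite repressor gene, fell by 1.04 on the log2 scale. With library totals and on log2(TPM + 1) the log2 changes were 2.03 and 2.25 for xyr1, 6.75 and 5.44 for crt1, 1.11 and 1.34 for ace3, and -0.54 and -0.26 for cre1, and each of these 4 genes stayed called. In these same libraries 2 of the 10 members were called higher, 2 were called lower with TMM scaling and 6 had too few counts for a test. Among all tested genes 41.2% were called higher and 39.5% lower.

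**Figure D5:**
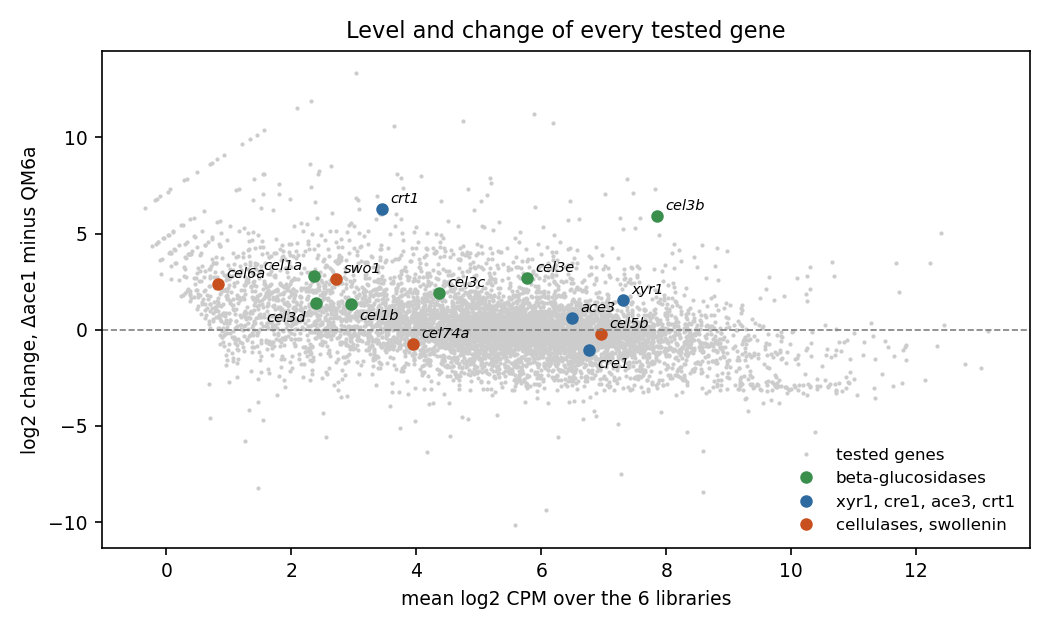
Log2 change (Δace1 minus QM6a, TMM scaling) of every tested gene against its mean log2 CPM over the 6 libraries. The 4 tested cellulase and swollenin genes (orange) lie between -0.74 and 2.62, below cel3b at 5.92 and crt1 at 6.26, and cel6a lies at the low end of the level axis. The places of cel74a and cel5b below 0 hold with TMM but not with every scaling.

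The neighbourhood of the members was read from the gene order of a reference table. The genes cel7a and swo1 are separated by 1 gene, TRIREDRAFT_69483, which fell by 1.498 on the log2 scale. On the other side of swo1 lies TRIREDRAFT_111849, the next gene, which was counted 91, 74 and 77 times in Δace1 and 4, 6 and 6 times in QM6a and rose by 3.51 (edgeR, adjusted p = 1.26e-09). TRIREDRAFT_5789, which lies 2 genes before cel7a, had 262, 249 and 284 counts against 18, 14 and 18 and rose by 3.60 on the log2 scale (edgeR, adjusted p = 6.30e-12). The genes around cel7a were thus called in both directions, and its own counts overlapped between the strains.

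The genes cel6a and cel5a lie on the same stretch with 8 genes between them. The gene next to cel6a, TRIREDRAFT_2489, rose by 1.94 on the log2 scale. Next to cel12a, which had no count, lies TRIREDRAFT_66819, with 154, 141 and 118 counts in Δace1 and 0 in each QM6a library. With QM6a set to the floor of 3 counts over the group, its level in Δace1 was at least 105-fold higher. TRIREDRAFT_71532, 2 genes from cel7b, rose by 4.57, and TRIREDRAFT_54230, 2 genes from cel61a, rose by 2.30 on the log2 scale. On the immediate other side of cel61a lies cip1, followed by axe1 (TRIREDRAFT_73632), an acetyl xylan esterase gene, and neither had enough counts to be tested.

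Around cel5b and cel74a the called changes of at least 4-fold were falls, and that beside cel74a depended on single libraries. Smaller called changes were mostly rises. Within 2 genes of cel5b, TRIREDRAFT_112551 and TRIREDRAFT_31367 rose by 0.90 and 1.74 on the log2 scale. Within 2 genes of cel74a, TRIREDRAFT_63815 and TRIREDRAFT_63837 rose by 0.58 and 0.78, and TRIREDRAFT_78873 fell by 0.83. TRIREDRAFT_70923, 2 genes from cel5b, was counted 99, 76 and 65 times in Δace1 and 672, 626 and 604 times in QM6a and fell by 3.37 on the log2 scale (edgeR, adjusted p = 7.52e-15). TRIREDRAFT_122363, next to cel74a, fell by 2.57 (edgeR, adjusted p = 0.0392), but its QM6a libraries ranged from 44 to 181 counts. That call was lost with library totals (-2.08), on log2(TPM + 1) (-1.38), without any 1 of the Δace1 libraries (-2.68, -2.54 and -2.50 without replicates 1, 2 and 3) and without QM6a replicate 2 (-2.79). Without QM6a replicate 3 it was called at -1.70, which is less than a 4-fold fall. Of the 37 distinct genes within 2 places of a member, 25 were tested. Of these, 17 were called higher, 5 lower and 3 not called, beside 41.2% higher and 39.5% lower among all tested genes. Several of the rises passed the count filter only through Δace1, including TRIREDRAFT_66819, TRIREDRAFT_71532, TRIREDRAFT_111849 and TRIREDRAFT_54230. A count of rises among the tested neighbours thus supports nothing by itself. Since the reference table marks contigs only by a drop in the start position, a boundary could have been missed.

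Genes with the most similar values over the 6 libraries were taken for the 3 members with at least 10 counts in every library, by the Euclidean distance of log2 CPM. For swo1 they were TRIREDRAFT_78223, TRIREDRAFT_109972 and TRIREDRAFT_69479, at distances of 0.551 to 0.619, with log2 changes of 2.75, 2.66 and 2.57. Since they were chosen for values like those of swo1 in these libraries, their changes are no separate result. For cel74a they were TRIREDRAFT_77541, TRIREDRAFT_103028 and TRIREDRAFT_61885, at 0.279 to 0.321. For cel5b they were TRIREDRAFT_43831, TRIREDRAFT_21306 and TRIREDRAFT_105190, at 0.167 to 0.194.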

How the data were processed

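Poly(A) RNA of 3 libraries per strain was sequenced from stranded TruSeq libraries, as the labels' protocols state. Per the submitters' processing notes the tools were kallisto 0.43.1, FastQC 0.11.5 and DESeq2 1.14.1. The transcript set and its build were not given in the sources used here. For each transcript the authors' deposited sample tables hold its length, estimated count and TPM, per the file headers. The TPM values that the authors deposited carry no depth. The deposited series table gives a normalized signal per locus tag, a count divided by 1 factor per sample, and 92.4% to 96.1% of its values times that factor were whole within 0.05. Of the lengths 99.1% are multiples of 3, so they are coding lengths.

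Locus tags and transcripts were joined by their counts in all 6 samples, and 99.2% of rounded values matched exactly. Of the 10 members 7 had a single partner. The other 3 (cel5a, cel12a, cel61a) shared their counts with other genes, so their counts hold and their lengths and TPM were not used. All estimated counts of the members were whole. A RefSeq table of assembly v2.0 gave the gene order and the symbols of 6 members. The other names come from the list of members.

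Estimated counts were rounded and tested with edgeR 4.0.16 in R 4.3.3 (quasi-likelihood, TMM, filterByExpr, robust, two-sided), with adjusted p-values over all 7769 tested genes. A standard error is the size of the log2 change over the square root of its F statistic. Counting intervals are exact (Clopper-Pearson) and, like the floor of 3 counts, cover counting error only. Alternatives were DESeq2 1.42.0, limma 3.58.1 on log2(normalized count + 1), log2(TPM + 0.1) and log2(TPM + 1), other scalings and filters, leaving out each library and a replicate block. A fit on the reads recovered from the normalized table and the ratios between genes were added after seeing the data. The members and lists were chosen with earlier results of these data known. Named were all members, 14 other listed genes, ace1, pks4, neighbours with a called change of at least 4-fold and the 3 genes most like each abundant member; other neighbours were named after their values were seen. The fits were tested on simulated data with few changed genes and as many rises as falls. In the data themselves most tested genes were called, so that test does not bear on the choice of scaling. Replicates differed by more than sampling noise (chi-square per degree of freedom 2.88 to 27.6). The planned count of promoter motifs was not run.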

Additional observations from a re-analysis of the deposited data

How the results depend on the processing

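The count of all changed genes (6274) stayed within 1.5 times under every alternative run, and the rises of swo1 and cel6a were called in each one that kept the gene. The 2 rises among the members became 1 with at least 50 counts in 3 samples, which removed cel6a from the test. The 2 falls became 1 with upper-quartile scaling and 0 with library totals, log2(TPM + 1) and log2(TPM + 0.1). On those TPM scales the log2 change of cel74a was 0.018 and 0.019, and that of cel5b 0.53 and 0.54, while with library totals cel5b was at 0.27. The cause was not tested. Genes chosen for values like those of cel74a and cel5b move with them under a scaling that shifts all genes, so their values are no separate result. Of those most like cel74a, TRIREDRAFT_61885 turned to 0.12 and 0.13 on the TPM scales. Of those most like cel5b, TRIREDRAFT_43831 turned to 0.31 with library totals and 0.56 and 0.58 on the TPM scales, TRIREDRAFT_21306 to 0.32, 0.58 and 0.59, and TRIREDRAFT_105190 to 0.33, 0.58 and 0.60. Leaving out each library gave log2 changes of 2.47 to 2.75 for swo1, 1.98 to 2.79 for cel6a, -0.83 to -0.66 for cel74a and -0.28 to -0.21 for cel5b, all called. With the replicate block 6223 genes were called and the log2 change of swo1 was 2.61, and it changed no call of a member. No pairing by replicate number was seen, with correlations of deviations from -0.047 to 0.032 for equal numbers and -0.069 to 0.064 for unequal numbers. Such weak correlations do not settle whether the samples were paired. Recovered reads gave the same count, 6274, but the join had matched genes by these same counts, so the outcome was nearly fixed in advance. That fit is among the 18 alternatives for swo1 and the 17 for cel6a and adds no weight to them. Depth limits cel7a, cel7b, cel5a, cel45a, cel61a and cel12a, for which only large differences could have been detected.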
